A study of Homo sapiens with 9 samples.

Results

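The mitochondrial ribosomal proteins were examined in OVCAR3, an established human ovarian carcinoma cell line, cultured for 72 h. The members were all protein-coding genes of the count table whose symbol is MRPL or MRPS followed by a digit. There were 78 of them among 58735 genes: 49 with an MRPL symbol (large subunit) and 29 with an MRPS symbol (small subunit). The study compared 3 groups of 3 libraries: cells with a scramble hairpin and cells with one of 2 short hairpin RNAs against GPX3, numbered 76 and 78 (sh76 and sh78 below). Such a hairpin RNA is processed in the cell into a small guide that lowers the mRNAs it matches, and GPX3 encodes a secreted glutathione peroxidase, a selenoprotein that reduces peroxides. All groups are OVCAR3 cells, so the values describe 1 cell line, and the labels do not say whether replicates or hairpins came from separate transductions or clones. The p-values therefore measure the spread between these libraries.

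Mitochondria carry their own ribosome, which resembles that of bacteria more than that of the cytosol and makes the few respiratory-chain subunits encoded by mitochondrial DNA. Its ribosomal RNAs are transcribed inside the organelle, whereas every protein of it is encoded in the nucleus, translated in the cytosol and imported. The small subunit binds the mRNA and reads the codons, and the large subunit joins the amino acids and passes the chain to the inner membrane. Some of these proteins have counterparts in bacterial ribosomes and others are found only in mitochondria.

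The libraries held 14652965 to 21327562 counts. GPX3 had 109 to 173 CPM (counts adjusted for library size) with scramble, 55.2 to 56.8 with sh76 and 28.3 to 35.3 with sh78, which follows the labels. Its log2 fold change was −1.25 with sh76 (adjusted p = 0.00264) and −2.12 with sh78 (adjusted p = 0.000125) by edgeR. All 10 markers of ovarian carcinoma epithelium, such as PAX8, EPCAM and MUC16, exceeded 1 CPM in every library. Their summed level was 12300 to 13100 CPM with scramble, 11100 to 12000 with sh76 and 10300 to 10900 with sh78. KRT8, the most abundant, had means of 5560, 4810 and 3880 CPM in that order, and KRT18 had 2180, 1720 and 1580. The markers did not move together. EPCAM, WT1, MSLN and CLDN3 also had lower means with both hairpins, whereas KRT7, MUC16 and WFDC2 had higher ones. PAX8 had a lower mean with sh76 and a higher one with sh78. Of 10 markers of fibroblasts, leukocytes and endothelium, 3 to 4 exceeded 1 CPM in every library of a group, and their sum was 35.7 to 50.5, 38.6 to 65.0 and 45.6 to 59.8 CPM in the same order. COL1A1, at 25.5 to 44.5 CPM, and VWF, at 5.37 to 9.82 CPM, made up most of that sum, whereas LUM, DCN, CD3E and PECAM1 had 0 counts in at least 1 library. The part of these marker levels in the results below was not tested. In bulk RNA, fewer cells of a type and less RNA per cell cannot be told apart.

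In scramble cells the genes spanned a wide range of levels per length. The median was 17.4 FPKM (fragments per kilobase of gene length, scaled to library size) over the 49 large-subunit genes and 13.5 FPKM over the 29 small-subunit genes. Of the 78 genes, 56 lay above 10 FPKM and 3 lay below 1 FPKM. MRPS34, a small-subunit protein found only in mitochondria (chromosome 16, 1771890 to 1773155, minus strand, GRCh38), led with 219 ± 13.9 FPKM (SD, n = 3) and alone gave 26.9% of the summed small-subunit FPKM. MRPS12, the counterpart of the bacterial S12 protein at the decoding centre (chromosome 19, 38930548 to 38933162, plus strand), followed with 98.2 ± 7.97 FPKM. In FPKM the SDs of these top genes did not overlap. In CPM, which is not divided by length, MRPS34 had 241 ± 15.1 and MRPS12 had 212 ± 16.6, and these SDs overlapped. MRPL3, the counterpart of bacterial L3 next to the peptidyl transferase centre (chromosome 3, 131462212 to 131502983, minus strand), was highest in the large subunit with 80.1 ± 5.16 FPKM and gave 7.17% of its sum. MRPS35, at 67.9 ± 4.42 FPKM, MRPL41, at 57 ± 3.42 FPKM, and MRPL51, at 55.8 FPKM, came next among the highest of each subunit, and the levels of MRPL41 and MRPL51 differed by less than the SD.

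**Figure D1:**
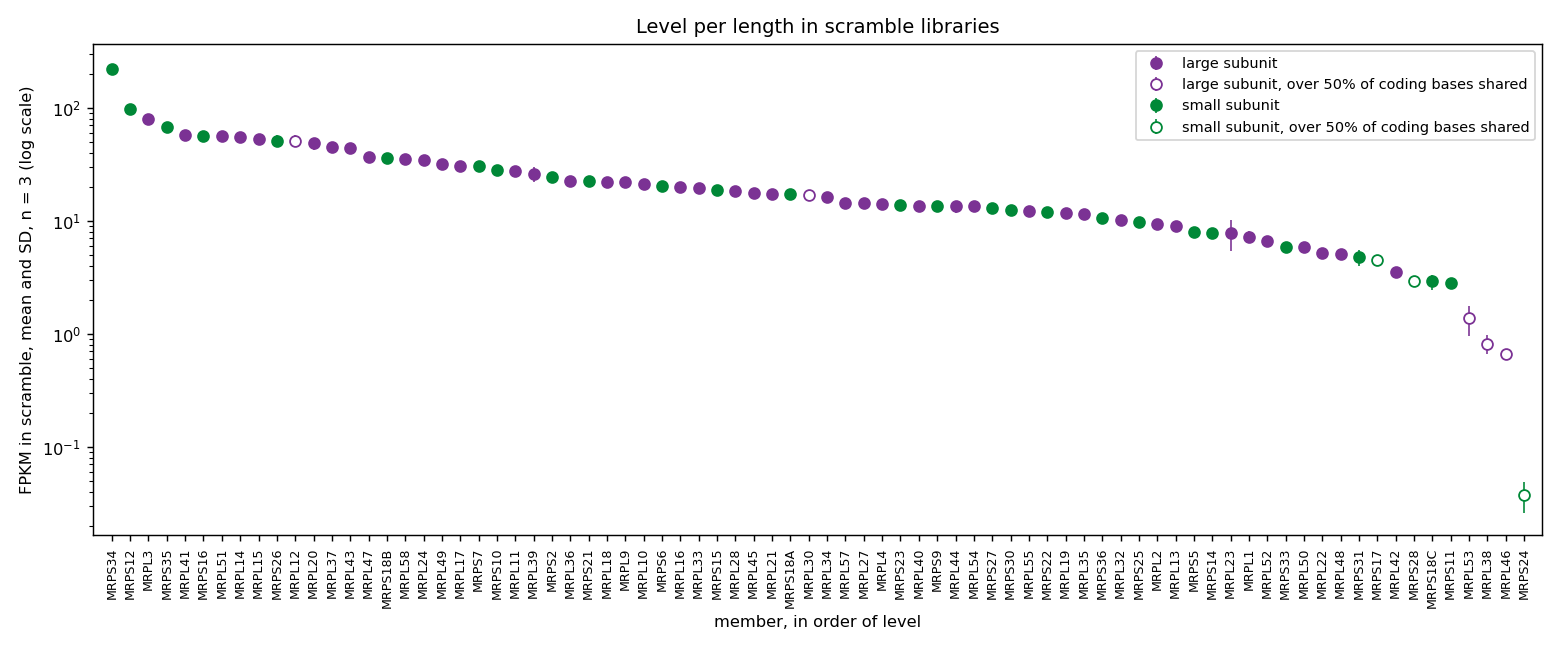
Mean level per length (FPKM, log scale) of the 78 genes in the 3 scramble libraries with SD, in order of level, in purple for the large and green for the small subunit. Open circles mark the 8 genes with over 50% of their coding bases shared with another annotated gene. MRPS34 stands at the top with 219 FPKM and MRPS24 at the bottom with 0.0376 FPKM.

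The lowest levels sat largely on genes whose annotated coding bases are mostly shared with another gene. MRPS24 was listed at 0.0376 FPKM, MRPL46 at 0.669 ± 0.048, MRPL38 at 0.815 ± 0.157 and MRPL53 at 1.37 ± 0.411 FPKM in scramble. In GENCODE 29, whose gene starts, ends and strands equal those of the files, 92.2% of the coding bases of MRPS24 also belong to the readthrough gene URGCP-MRPS24. The shared part was 64% for MRPL46 and 94.1% for MRPL38, in both cases with a gene model on the same strand that carries only a clone name. For MRPL53 it was 100%, shared with CCDC142. The 8 genes with over 50% of their coding bases shared (MRPL12, MRPL30, MRPL38, MRPL46, MRPL53, MRPS17, MRPS24 and MRPS28) had a median of 2.16 FPKM, against 17.5 FPKM in the other 70. MRPL12, the stalk protein that binds translation factors, had 51.3 FPKM although 96% of its coding bases are shared, so the low level did not hold for each of the 8. Over all 78 genes the relation was weak. Spearman's rho with FPKM was −0.25 for the share of coding bases and −0.15 for the share of all exon bases. The 14 genes with over 20% of all exon bases shared had a median of 11.9 FPKM, against 17.3 FPKM in the other 64. How the counting treated fragments in shared bases is not given in the sources used here, and its part in these levels was not tested. MRPS11 and MRPS18C, at 2.84 and 2.91 FPKM, were the lowest small-subunit genes among those tested and share no more than 50% of their coding bases.

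Annotated gene length also moved with the level. FPKM divides by the union of all annotated exons, and across the 78 genes Spearman's rho between that length and FPKM was −0.5, against 0.1 between length and CPM, which is not divided by length. The points share the libraries and the length enters FPKM itself, so both are descriptions. The 11 genes longer than 5000 bases, among them MRPS30, MRPS27 and MRPL22, had a median of 7.92 FPKM and the 67 others one of 18.7 FPKM. The order of levels hardly differed between groups, with a rank correlation across the 78 genes of 0.995 between scramble and sh76 and of 0.996 between scramble and sh78.

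The genes lie apart in the genome, on 21 chromosomes, with no more than 8 on any one. Many of their promoters hold the same short letter strings. RefSeq promoters (GRCh38.p14, 250 bases before to 50 after the start) were matched for 69 of the 78 genes and searched on both strands for 3 motifs. The core bound by ETS factors such as GABPA, CCGGAAG, was present in 29 (42.0%), against 18.1% of the promoters of the tested genes and 10.7% of all 27305 promoters in the table. The YY1 motif AAGATGGC was present in 20 (29%), against 5.1% and 3.0%. The palindromic NRF1 consensus was present in 8 (11.6%), against 11% and 6.3%. The ETS core ends with the letters AAG that begin the YY1 motif, so a site can hold both. In the large and small subunit the shares were 40.5% and 44.4% for the ETS core, 28.6% and 29.6% for YY1, and 14.3% (6 of 42) and 7.4% (2 of 27) for NRF1. None of the 3 was found in 24 promoters. Of the 20 promoters with YY1 letters, 15 had them on the gene's own strand after the start. These shares describe letters, not binding. The lines below show windows of 30 bases for the most abundant genes and for MRPL50, whose values follow further on. Capitals mark 1 motif in each window. The MRPS34 window also holds another ETS core in lower case, at its bases 2 to 8, and the whole MRPS34 promoter holds 3. The windows lie on GRCh38.p14 at chr16:1773135-1773164 (MRPS34, read on the minus strand, with the ETS core on the opposite strand), chr19:38930928-38930957 (MRPS12, plus strand), chr3:131502985-131503014 (MRPL3, minus strand), chr12:6493348-6493377 and chr12:6493223-6493252 (MRPL51, minus strand) and chr9:101398577-101398606 (MRPL50, minus strand).
MRPS34, ETS core: tcttccggtgaCTTCCGGccggaccgctga
MRPS12, ETS core: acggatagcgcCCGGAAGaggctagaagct
MRPL3, ETS core: tgtaaaacgcaCCGGAAGtgggtccggcgg
MRPL51, ETS core: cggcaggcggaCCGGAAGcactgaggcggg
MRPL51, YY1: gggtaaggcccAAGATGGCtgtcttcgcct
MRPL50, YY1: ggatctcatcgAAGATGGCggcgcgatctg
The MRPS34 window starts the motif 19 bases before the RefSeq start and the MRPS12 window 5 bases before it, whereas both YY1 motifs shown lie after the start. The promoters of MRPS35, MRPL41, MRPL44 and MRPL11, whose values are given below, held none of the 3 letter strings in this window.

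With sh76, the milder knockdown of GPX3, no mitochondrial ribosomal protein gene passed the edgeR test with libraries unpaired. The medians of the family stayed close to scramble. Calls with libraries paired by replicate number are given further below. Of the 77 genes with enough counts to test, 0 were called by edgeR (adjusted p under 0.05 over 17023 genes), against 3.58% of all genes tested. At an unadjusted p under 0.05 there were 6 of 77, against 2959 of 17023, and DESeq2 called 2, MRPS34 and MRPS35, both lower, against its background of 5.41%, while limma on log2(FPKM + 1) called 0, against 2.71%. The median log2 fold change was −0.04 in the large subunit, −0.01 in the small subunit and −0.03 over all 77, beside 0.01 over all genes. The extremes of single genes were −0.33 and 0.38. The groups did not overlap in CPM for 13 genes, 7 lower (MRPL11, MRPL21, MRPL28, MRPL41, MRPS34, MRPS35 and MRPS6) and 6 higher (MRPL9, MRPL15, MRPL44, MRPL46, MRPS5 and MRPS14), against 22.5% of all genes.

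With sh78, the deeper knockdown, 1 gene fell and the rest did not pass the edgeR test with libraries unpaired. MRPS34 was the 1 call among 77, against 4.41% of all genes tested and 2.56% that were lower. At an unadjusted p under 0.05 there were 6 of 77, against 2983 of 17023, and DESeq2 and limma each called 1, against 6.18% and 3.21% of all genes. The median log2 fold change was −0.07 in the large subunit, −0.04 in the small subunit and −0.06 over all 77, beside 0.01 over all genes. A value below 0 was found for 57 of the 77 genes (74.0%) with sh78 and 46 (59.7%) with sh76, beside 48.7% and 48.6% of all genes. The 2 comparisons share the scramble libraries, and scramble replicate 3 stood highest for the family: 66 of 77 genes were above their own mean over all libraries there, and the median deviation over the 77 was 0.09 on the log2 scale. Without that library the median was 0.005 with sh76 and −0.02 with sh78, and without scramble replicate 2 it was −0.067 and −0.094. These were the extremes over the 9 fits that each left out 1 library, so the sh78 median stayed below 0 in all 9. The groups did not overlap for 10 genes that were lower (MRPL4, MRPL10, MRPL11, MRPL19, MRPL21, MRPL22, MRPL41, MRPL49, MRPS18A and MRPS34) and for MRPS9, which was higher, against 21.5% of all genes.

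The replicate numbers paired the libraries, and fitting that number as a block raised the number of calls. With the block, edgeR called 7 of 77 genes with sh76, against 20.4% of all genes: MRPL44 higher and MRPL21, MRPL41, MRPS6, MRPS21, MRPS34 and MRPS35 lower. With sh78 it called 7, all lower, against 19.9% of all genes and 10.1% that were lower: MRPL4, MRPL11, MRPL22, MRPL41, MRPL49, MRPS34 and MRPS35. The share of the family that was called, 9.09% in each comparison, lay below the share of all genes. Both hairpins gave a call in the same direction for 0 genes without the block, against 1.32% of all genes, for 1 by DESeq2, against 1.94%, and for 3 with the block, MRPL41, MRPS34 and MRPS35, all lower, against 8.29%. Without the low-count filter edgeR called 2 genes with sh76, against 3.18% of all genes, and 1 with both hairpins, against 1.17%.

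**Figure D2:**
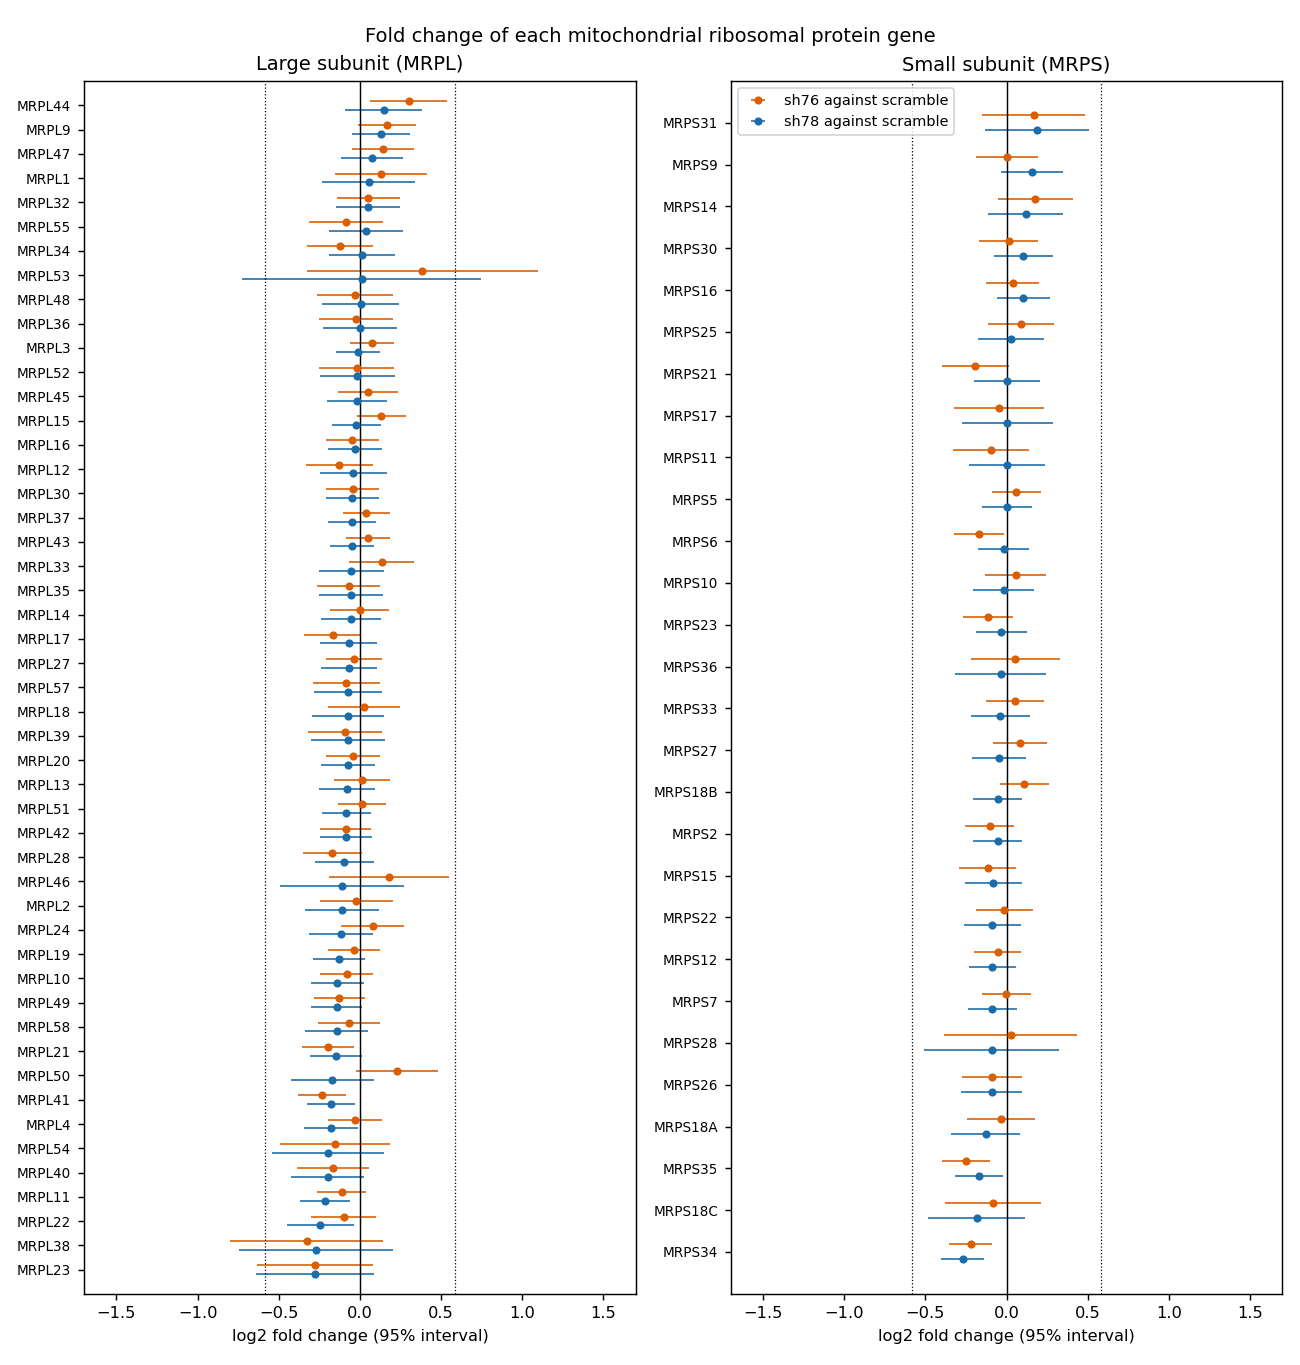
Log2 fold change of the 77 tested genes with 95% interval, sh76 (orange) and sh78 (blue) against scramble, in order of the sh78 value. Dotted lines mark a 1.5-fold difference in either direction. The intervals of 74 genes lie between the lines in each comparison, and MRPL23, MRPL38 and MRPL53 are the genes with an interval beyond them.

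The measurement was precise enough to bound most differences. In each of the 3 comparisons the 95% interval lay within 1.5-fold in both directions for 74 of 77 genes (96.1%), whereas it did so for 59.6% of all genes with sh76 and 59.2% with sh78. The median coefficient of variation between replicates was 6.2% for the family and 11.2% for all genes, whose median level was also lower, at 17.1 CPM against 45.2 CPM. The median size of the fold change, without its sign, was 0.08 on the log2 scale with sh76 and 0.07 with sh78, beside 0.15 for all genes in each.

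MRPS34 was the clearest case of a lower level. It had 255, 225 and 243 CPM in scramble replicates 1 to 3, 216, 198 and 207 with sh76 and 198, 205 and 197 with sh78. No hairpin library reached the lowest scramble library, and the hairpins overlapped with each other. The log2 fold change was −0.22 ± 0.062 (SE) with sh76, which missed the threshold (edgeR adjusted p = 0.0679; 0.000225 with the block). It was −0.27 ± 0.063 with sh78, which passed (adjusted p = 0.0239; 9.45e-06 with the block). In the 9 edgeR fits without the block that each left out 1 library, the sh78 call was lost in 5. These were the fits without scramble replicate 1 or 3 or without any 1 of the sh78 libraries. The edgeR adjusted p ranged from 0.0224 to 0.088 over the 9. Such fits were not run with the block. MRPS34 shares no exon base with another gene.

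MRPS35 and MRPL41, which are likewise specific to mitochondria and sit in the small and the large subunit, had values close to those of MRPS34. MRPS35 (chromosome 12, 27710773 to 27756295, plus strand) had 137, 126 and 142 CPM with scramble, 118, 107 and 115 with sh76 and 126, 114 and 121 with sh78. With sh76 all libraries were below scramble, and with sh78 the top library equalled the lowest scramble library to 3 digits. Its log2 fold change was −0.25 ± 0.069 with sh76 (edgeR adjusted p = 0.0615; 5.33e-05 with the block) and −0.17 ± 0.069 with sh78 (0.218; 0.00623 with the block). MRPL41 (chromosome 9, 137551199 to 137552555, plus strand) had 75.3, 67.5 and 74.1 CPM with scramble, 61.3, 59.8 and 63.1 with sh76 and 65.4, 63.6 and 62.6 with sh78. Both hairpins lay below scramble in every library. The log2 fold change was −0.23 ± 0.069 with sh76 (edgeR adjusted p = 0.0806; 0.00127 with the block) and −0.18 with sh78 (0.189; 0.016 with the block).

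MRPL11, the counterpart of the bacterial protein at the base of the factor-binding stalk, was lowest with sh78. It had 70.2, 68.9 and 71.4 CPM with scramble, 66.8, 65.8 and 62.2 with sh76 and 58.8, 65.1 and 57.7 with sh78. All scramble values lay close together and above those of both hairpins. The log2 fold change was −0.11 with sh76 (edgeR adjusted p = 0.453; 0.147 with the block) and −0.21 with sh78 (0.121; 0.00418 with the block). MRPL22 and MRPL4, counterparts of bacterial proteins that line the exit tunnel, had −0.24 and −0.18 with sh78, with adjusted p of 0.191 and 0.259, and 0.0252 and 0.0255 with the block.

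MRPL44, a protein of the large subunit with an RNase III-like fold, stood on the other side. It had 23.2, 21.0 and 26.5 CPM with scramble, 28.9, 28.1 and 30.2 with sh76 and 26.8, 28.6 and 23.0 with sh78. All sh76 libraries were above scramble, and the sh78 libraries overlapped with both groups. The log2 fold change was 0.30 ± 0.11 with sh76 (edgeR adjusted p = 0.162; 0.0107 with the block) and 0.15 with sh78 (0.563; 0.271 with the block). In the small subunit the highest values with sh76 were those of MRPS14 (0.18), MRPS31 (0.17) and MRPS18B (0.11), and with sh78 those of MRPS31 (0.19), MRPS9 (0.16) and MRPS14 (0.12), none of which passed the test with or without the block. In the large subunit MRPL9 (0.13) and MRPL47 (0.07) followed MRPL44 with sh78 and did not pass either.

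**Figure D3:**
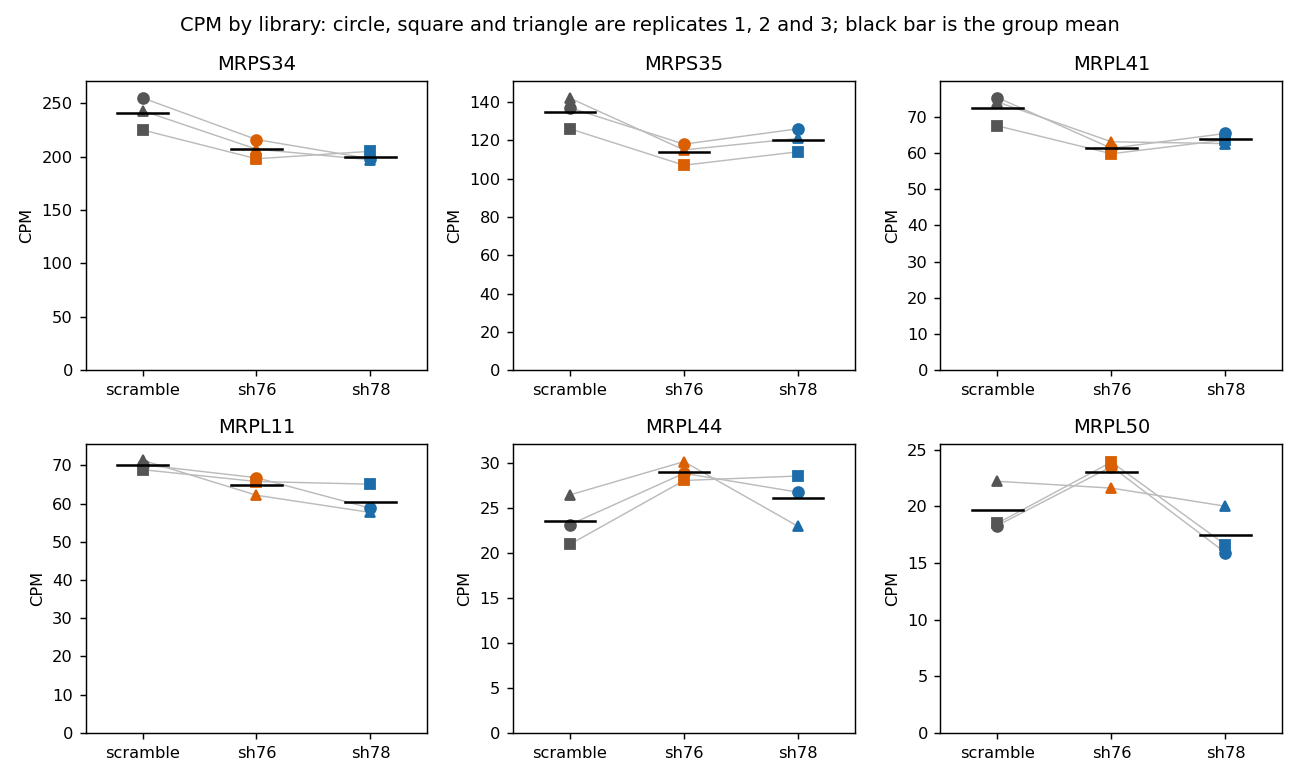
CPM of 6 genes in each library (circle, square and triangle for replicates 1, 2 and 3, joined within a replicate number; black bars, group means). MRPS34, MRPS35, MRPL41 and MRPL11 have lower means with both hairpins than with scramble, MRPL44 has its highest mean with sh76, and MRPL50 is high with sh76 and low with sh78.

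The largest values in the large subunit belonged to genes with wide errors. MRPL23, the counterpart of a bacterial exit-tunnel protein (chromosome 11, 1947278 to 1984522, plus strand), had 31.7, 18.1 and 20.3 CPM with scramble, 19.1, 19.1 and 19.5 with sh76 and 19.8, 17.8 and 20.1 with sh78. Scramble replicate 1 alone stood apart. The log2 fold change was −0.28 ± 0.166 with sh76 and −0.28 ± 0.168 with sh78, neither of which passed (edgeR adjusted p = 0.429 and 0.445), and without scramble replicate 1 it was −0.001 and 0.001. MRPL38 had a log2 fold change of −0.33 ± 0.219 and −0.27 ± 0.222 on 2.08 to 3.62 CPM, and its groups overlapped. MRPL53 had 0.38 ± 0.331 and 0.01 ± 0.344 on 0.894 to 2.53 CPM, with sh78 replicate 2 the lowest library.

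Between the hairpins, no gene of the family passed the filtered edgeR test without the block. With sh78 against sh76, 0 of 77 were called by edgeR, against 3.70% of all genes tested, with 4 at an unadjusted p under 0.05, against 2768 of 17023, and 0 by DESeq2, against 5.41%, and by limma, against 2.64%. Without the low-count filter edgeR called 1, MRPL50, against 3.12%. The median log2 fold change was −0.04, beside 0.0 over all genes. CPM did not overlap for 10 genes, 7 lower and 3 higher with sh78, against 21.8% of all genes. With the block 6 were called, against 18.3% of all genes: MRPL15, MRPL24, MRPL50 and MRPS18B lower and MRPS6 and MRPS21 higher.

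MRPL50, a mitochondria-specific large-subunit protein (chromosome 9, 101387633 to 101398614, minus strand), differed most between the hairpins. It had 18.3, 18.5 and 22.2 CPM with scramble, 23.5, 23.9 and 21.6 with sh76 and 15.9, 16.6 and 20 with sh78. Each sh76 library was above each sh78 library, and scramble overlapped with both. The log2 fold change of sh78 against sh76 was −0.40 ± 0.119 (edgeR adjusted p = 0.0875; 0.00157 with the block), whereas against scramble it was 0.23 with sh76 and −0.17 with sh78, neither called. MRPS21 and MRPS6, the counterparts of bacterial S21 and S6, went the other way. MRPS21 had 34.7, 34.8 and 41.1 CPM with scramble, 30.7, 30.6 and 35.5 with sh76 and 36.4, 36.0 and 38.6 with sh78. Its log2 fold change of sh78 against sh76 was 0.20 ± 0.095 (edgeR adjusted p = 0.334; 0.033 with the block), and that of MRPS6 was 0.15 ± 0.073 (0.321; 0.0333 with the block). MRPL46 (−0.29), MRPL53 (−0.37), MRPS27 (−0.13) and MRPS28 (−0.12) were also among the lowest, and MRPL34 (0.13), MRPL55 (0.12), MRPL17 (0.10) and MRPS9 (0.15) among the highest, and none of them passed with or without the block.

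Some symbols of the family do not match the place of the protein. The 3 paralogues of bacterial S18 differed in level, with 35.8 ± 2.23 FPKM for MRPS18B, 17.4 ± 1.37 for MRPS18A and 2.91 ± 0.444 for MRPS18C in scramble. This order exceeds their SDs, also in CPM (67.9 ± 3.93, 22.4 ± 1.66 and 14.2 ± 2.1). The CPM of MRPS18A and MRPS18C lie closer together than their FPKM, which divide by 1284 and 4866 bases. These 2 genes share 47.0% and 40.2% of their exon bases with genes on the opposite strand, whose reads cannot be told apart here. MRPS18A, like MRPS30, is built into the large subunit despite its symbol. MRPS18A had 21.5, 21.4 and 24.3 CPM with scramble, 22.2, 20.4 and 23.0 with sh76 and 20.5, 20.6 and 20.5 with sh78. Its sh78 libraries lay just below all scramble libraries, with a log2 fold change of −0.13 ± 0.099 that did not pass (edgeR adjusted p = 0.57). MRPS30 had log2 fold changes of 0.01 and 0.10, and MRPS36, since assigned to the oxoglutarate dehydrogenase complex, had 0.05 and −0.04 with sh76 and sh78. MRPL58, a peptidyl-tRNA hydrolase that is also built into the large subunit, had −0.07 and −0.14. None of these passed in any comparison with or without the block, apart from the blocked call of MRPS18B between the hairpins.

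Summed over all members, both subunits had slightly lower means with the hairpins than with scramble. In FPKM the log2 ratio of group means was −0.02 with sh76 and −0.07 with sh78 for the large subunit. For the small subunit it was −0.10 with each hairpin. In summed CPM the values were −0.02 and −0.07 for the large and −0.055 and −0.060 for the small subunit. Without MRPS34 the small-subunit FPKM sum gave −0.051 and −0.045. The large-subunit sum was 1115, 1060 and 1178 FPKM with scramble, 1112, 1068 and 1121 with sh76 and 1058, 1090 and 1052 with sh78, and the groups overlapped. The small-subunit sum was 827, 770 and 845 FPKM with scramble, 770, 736 and 778 with sh76 and 744, 771 and 759 with sh78, which also overlapped. The mean small-subunit sum was 814 ± 38.8, 762 ± 22.1 and 758 ± 13.2 FPKM (SD, n = 3). The ratio of the large to the small sum was 1.35, 1.38 and 1.39 with scramble, 1.44, 1.45 and 1.44 with sh76 and 1.42, 1.41 and 1.39 with sh78. All sh76 libraries were above all scramble libraries, and sh78 overlapped with scramble. On the log2 scale the mean ratio was 0.07 higher with sh76 and 0.04 higher with sh78, without a test because it is a score over the members.

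The size of the difference in ratio depended on MRPS34. Without it, the mean ratio was 1.88 ± 0.0114 with scramble, 1.91 ± 0.0174 with sh76 and 1.85 ± 0.0315 with sh78. The difference on the log2 scale was then 0.03 with sh76 and −0.02 with sh78, so that the direction with sh78 turned. The sh76 libraries, at 1.93, 1.91 and 1.90, still lay above the scramble libraries, at 1.87, 1.87 and 1.89. MRPS35 remained in that small-subunit sum, with a mean of 67.9 FPKM with scramble and 56.9 with sh76. The whole sum without MRPS34 had means of 595 and 575 FPKM. The ratio without both genes was not computed, so these values do not show a difference across the subunit. With CPM of all members in place of FPKM, which gives long and short genes their weight in reads, the log2 difference in ratio was 0.04 with sh76 and −0.01 with sh78. Placing MRPS18A and MRPS30 in the large subunit and leaving out MRPS36 gave 0.08 and 0.04.

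**Figure D4:**
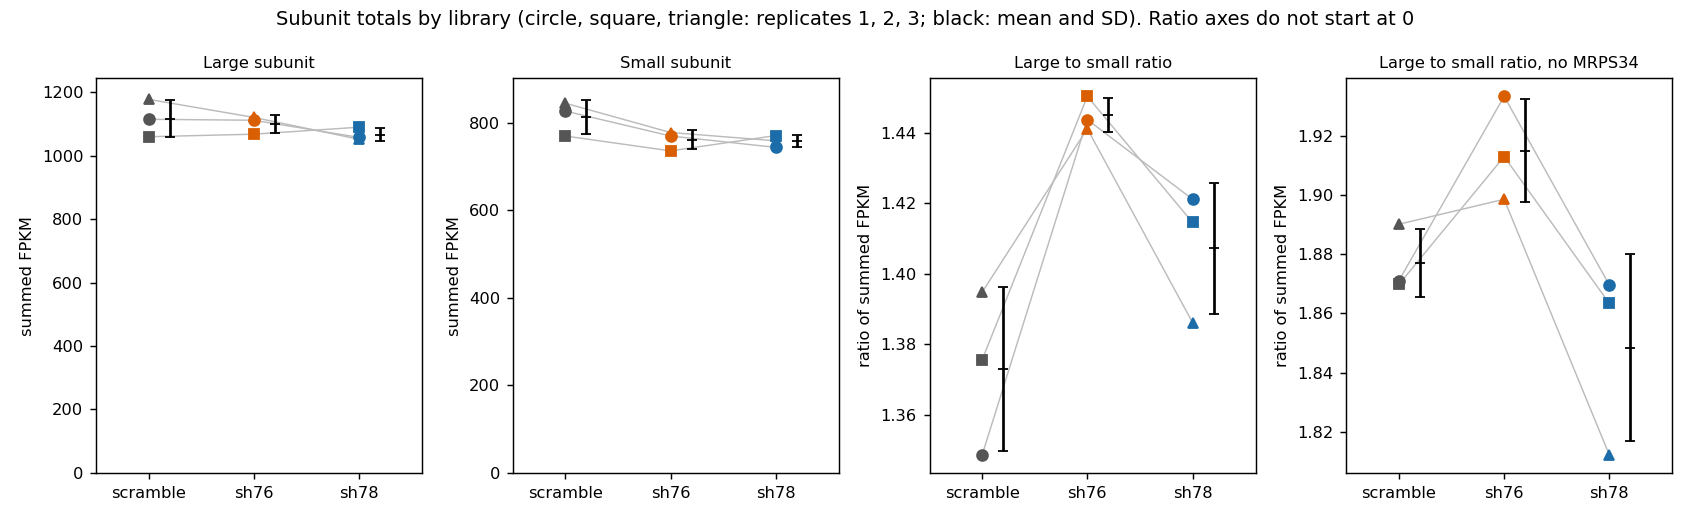
Summed FPKM of the large and the small subunit and their ratio with all members and without MRPS34, by library (circle, square and triangle for replicates 1, 2 and 3; black, mean and SD, n = 3). The sums overlap between groups, and the ratio with all members is above scramble in all 3 sh76 libraries. The ratio axes do not start at 0.

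Members with a bacterial counterpart and those specific to mitochondria had medians close to each other. The median log2 fold change over the 44 tested members with a bacterial counterpart was −0.04 with sh76 and −0.05 with sh78. Over the 30 that are specific to mitochondria it was −0.02 and −0.08. The single call without the block, MRPS34, is among the latter. With the block, both hairpins gave a call in the same direction for 0 of the 44 and 3 of the 30, against 8.29% of all genes. With sh78 a value below 0 was found for 68.2% of the 44 and 80.0% of the 30. The difference between these lists was not tested.

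Genes that act with these proteins were followed in the same fits. Of all genes, edgeR called 3.58% with sh76, 4.41% with sh78 and 3.70% between the hairpins. At an unadjusted p under 0.05 the shares of all genes were 17.4%, 17.5% and 16.3%. With the block the shares of all genes called at an adjusted p under 0.05 were 20.4%, 19.9% and 18.3%. The 5 further mitochondrial ribosomal proteins without an MRP symbol (DAP3, AURKAIP1, CHCHD1, PTCD3 and GADD45GIP1) gave 0 calls by edgeR, DESeq2 or limma in any comparison and 0 at an unadjusted p under 0.05, and with the block AURKAIP1 was lower with sh76 (log2 fold change −0.12, adjusted p = 0.0418). DAP3, a GTP-binding protein of the small subunit, had 171, 175 and 196 CPM with scramble, 176, 181 and 196 with sh76 and 156, 176 and 179 with sh78. Of 23 assembly factors, 0 were called by edgeR, DESeq2 or limma in any comparison, with 2, 2 and 1 at an unadjusted p under 0.05 for sh76, sh78 and between the hairpins. With the block NGRN was lower with sh76 and higher with sh78 than with sh76, and YBEY was lower with sh78. Of 15 translation factors, 0 were called by any of the 3 tools, with 0, 1 and 1 at an unadjusted p under 0.05, and with the block TUFM was lower with sh76 (−0.13) and GFM1 (−0.16) and SLIRP (−0.17) lower with sh78. Between the hairpins the block called LRPPRC (−0.14) and MTRF1L (−0.33), both lower with sh78. TUFM and GFM1 are elongation factors, SLIRP and LRPPRC bind mitochondrial mRNA, and MTRF1L is a release factor.

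Of the 15 RNAs encoded by mitochondrial DNA, MT-CYB, which encodes cytochrome b, rose with sh78. It was the 1 edgeR call among them with sh78, against 4.41% of all genes. It had 2510, 2660 and 2620 CPM with scramble and 3080, 3140 and 3250 with sh78, without overlap, as for 21.5% of all genes. The log2 fold change was 0.28 (edgeR adjusted p = 0.00767). The sh76 libraries, at 2660, 2810 and 2750 CPM, gave 0.08 (0.492). The mitochondrial ribosomal RNAs, which poly-A selection captures only in part, had log2 fold changes of 0.14 and 0.03 for MT-RNR1 and 0.05 and −0.01 for MT-RNR2, none of which passed. With the block 1 of the 15 was called with sh76, 6 with sh78 and 3 between the hairpins, all higher, against 20.4%, 19.9% and 18.3% of all genes called in either direction.

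Of 14 genes of mitochondrial transcription and biogenesis, 1 fell with each hairpin, and not the same one. Of all genes, 3.58% were called with sh76 and 4.41% with sh78, in either direction. PPARGC1A, which encodes a coactivator of mitochondrial biogenesis, had 6.17, 8.33 and 6.03 CPM with scramble, 3.08, 3.78 and 3.20 with sh76 and 5.60, 6.95 and 5.33 with sh78. It fell by 1.02 on the log2 scale with sh76 (edgeR adjusted p = 0.00925), had −0.20 with sh78 (0.649), and was higher with sh78 than with sh76 by 0.82 (0.0315). ESRRA, a nuclear receptor that acts with that coactivator, had 144, 118 and 131 CPM with scramble and 111, 101 and 108 with sh78 and fell by 0.29 (edgeR adjusted p = 0.047), with −0.13 with sh76 (0.426; 0.0484 with the block). GABPA, whose motif is the ETS core above, had −0.17 and −0.07, and was called with sh76 when the block was fitted (adjusted p = 0.0268). With the block 3 of the 14 were called lower with sh76 (PPARGC1A, ESRRA and GABPA) and 3 lower with sh78 (ESRRA, PPARGC1B and MYC). Between the hairpins the block called PPARGC1A higher and ESRRA and YY1 lower with sh78. The blocked shares of all genes, in either direction, were 20.4%, 19.9% and 18.3% in these 3 comparisons.

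The nuclear subunits of oxidative phosphorylation stood lower than the mitochondrial ribosomal proteins beside the same scramble libraries. Of 81 tested, 5 fell with sh76 and 7 with sh78 by edgeR, and 0 rose, against 3.58% and 4.41% of all genes called in either direction. Between the hairpins 0 were called by edgeR, DESeq2 or limma, with 6 at an unadjusted p under 0.05. The median log2 fold change was −0.11 and −0.14, beside −0.03 and −0.06 for the mitochondrial ribosomal proteins. COX8A, a subunit of cytochrome c oxidase, fell with both (−0.28, adjusted p = 0.0488, and −0.33, adjusted p = 0.0193). NDUFS8 (−0.33), NDUFB10 (−0.30) and NDUFC2 (−0.40) of complex I and NDUFA4L2 (−1.05), a relative of a cytochrome c oxidase subunit, fell with sh76. COX5B (−0.32) and COX7B (−0.29) of cytochrome c oxidase, ATP5MC3 (−0.27) and ATP5MF (−0.25) of ATP synthase, UQCRFS1 (−0.28) of complex III and SDHB (−0.28) of complex II fell with sh78. With the block 30 and 37 of the 81 were called, beside 20.4% and 19.9% of all genes and 7 and 7 of the 77 mitochondrial ribosomal proteins, and 9 were called between the hairpins, beside 18.3%. The difference between the lists was not tested.

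**Figure D5:**
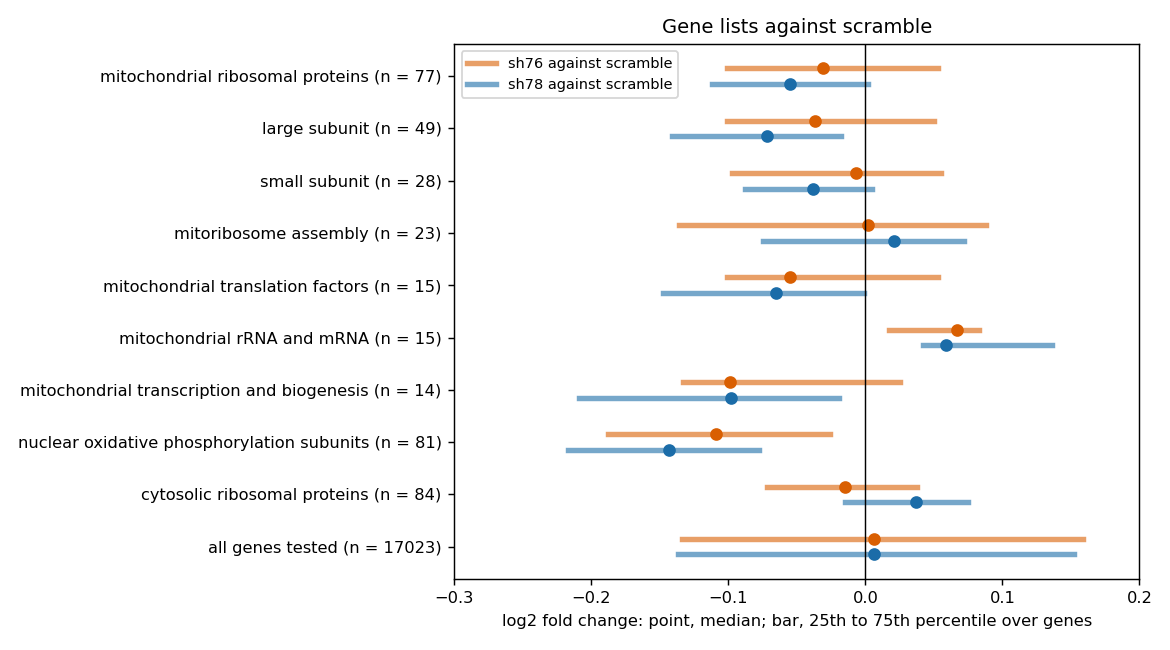
Median log2 fold change (point) and range from the 25th to the 75th percentile (bar) over the genes of each list, sh76 (orange) and sh78 (blue) against the same scramble libraries. The mitochondrial ribosomal proteins have medians of −0.03 and −0.06, the nuclear oxidative phosphorylation subunits −0.11 and −0.14, and all genes 0.01 in both.

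The cytosolic ribosomal proteins, the counterpart family outside mitochondria, had medians of −0.02 with sh76 and 0.04 with sh78 over 84 tested genes. By edgeR 0 were called in any comparison, with 8, 9 and 8 at an unadjusted p under 0.05 with sh76, with sh78 and between the hairpins, and DESeq2 called 1 lower with sh76. With the block 14 were called with sh76 (4 higher, 10 lower), 17 with sh78 (14 higher, 3 lower) and 19 between the hairpins (16 higher, 3 lower), against 20.4%, 19.9% and 18.3% of all genes. Between the hairpins the cytosolic median was 0.06 (sh78 against sh76) and that of the mitochondrial ribosomal proteins −0.04.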

How the data were processed

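Per the labels' protocols, mRNA was selected with poly-T beads and libraries were not strand-specific. The authors deposited whole-number counts per gene and FPKM for 9 libraries. Per the submitters' processing notes, HISAT2 2.0.5, featureCounts 1.5.0-p3 and build hg38 were used; the annotation release and counting settings are not given in the sources used here. All 58735 genes have the same start, end and strand in GENCODE 29. Without strand, reads of genes that overlap on opposite strands cannot be told apart, and 41 of the 78 members share at least 1 exon base with another gene.

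The test on counts was edgeR 4.0.16 (R 4.3.3): filterByExpr (minimum count 10, minimum total 15), TMM, robust glmQLFit and quasi-likelihood tests over all 9 libraries, with Benjamini-Hochberg adjustment over 17023 genes, which include 77 members. MRPS24 fell below the filter. CPM is TMM-scaled. Alternatives were RLE factors, DESeq2 1.42.0, no filter, 2 groups only, limma 3.58.1 on log2(FPKM + 1) and log2(FPKM + 0.1), a replicate block and leaving out each library. The labels number replicates 1 to 3 in each group. Deviations from group means correlated at r = 0.142 to 0.391 in the 9 same-numbered pairs and at −0.31 to 0.064 in the 18 others, so the numbers were taken as pairs and blocked values stand beside the results they change. Replicates differed beyond counting noise (chi-square per degree of freedom 4.9 to 11.068), so none was counted as a duplicate. On simulated counts for sh76 against scramble (16747 genes, 198 changed 2-fold), edgeR recovered 70.7% with 4.76% of calls false.

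The members, lists and tests were chosen with earlier results of these data known. Genes named were those called, the 3 highest and 3 lowest fold changes per subunit and comparison, the 3 most and least abundant per subunit, the MRPS18 paralogues, MRPS30, MRPS36, MRPL58 and called genes of other lists; genes named outside that rule, such as those called only with the block, were chosen after their values were seen.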

Additional observations from a re-analysis of the deposited data

Results flagged for a closer look

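PPARGC1A, which encodes a coactivator of mitochondrial biogenesis, differed between the hairpins: the log2 fold change of sh78 against sh76 was 0.821 (edgeR adjusted p = 0.0315). Its level was 3.08 to 3.78 CPM with sh76, below all 6 other libraries, which lay between 5.33 and 8.33 CPM.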

How the results depend on the processing

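RLE factors, a fit of 2 groups only and limma on log2(FPKM + 1) or log2(FPKM + 0.1) kept the number of members called at 0 with sh76, 1 with sh78 and 0 between the hairpins. DESeq2 and the fit without a filter each gave 2 with sh76 and 1 with both hairpins, and the fit without a filter gave 1 between the hairpins. The replicate block gave 7 with sh76, 7 with sh78, 6 between the hairpins and 3 with both. Leaving out each library, without the block, gave 0 to 1 with sh78, and the call lost was that of MRPS34. The other 3 counts were 0 in all 9 of those fits. The log2 ratio of the large to the small subunit was 0.037 with sh76 and −0.010 with sh78 for summed CPM, 0.022 and −0.026 without the most abundant member of each subunit, and 0.029 and −0.022 without MRPS34, an alternative chosen after seeing the data. MRPL23 with sh78 turned sign without scramble replicate 1, to 0.001, within a range of −0.434 to 0.001. Of the named genes' other values, 16 became called, 11 of them with the block, 3 without a filter and 2 by DESeq2, 5 lost the call, all of MRPS34 with sh78, and 570 kept both direction and call. The causes were not tested. With 3 libraries per group, the 95% intervals of MRPL23, MRPL38 and MRPL53 against scramble and of MRPL46, MRPL50 and MRPL53 between the hairpins reached beyond 1.5-fold.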

Other observations

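MRPS24, left out of the tests, had 1, 2 and 2 counts in scramble replicates 1 to 3, 2, 2 and 2 with sh76 and 1, 8 and 7 with sh78. Its readthrough partner URGCP-MRPS24 had 0 counts in 8 of 9 libraries. Averaged over the groups, the 3 replicate numbers of a member differed by a median of 0.111 on the log2 scale, beside 0.212 over all genes, and the largest such ranges were those of MRPL23 (0.314), MRPL53 (0.304) and MRPS31 (0.296). Replicate 3 had the highest mean for 36 of 77 members and replicate 2 for 17.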
